A study of Rattus norvegicus with 33 samples.

Results

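Muribaculum and Duncaniella are genera of rod-shaped anaerobic bacteria in the order Bacteroidales, and they were followed here in the cecum of hypertensive and control rats. Their members were the rows that the deposited tables place in the genera Muribaculum, Duncaniella or Paramuribaculum. They came to 2 of 1455 bacterial genera and 5 of 5543 bacterial species. Muribaculum held 2 species, Muribaculum sp. TLL-A4 and Muribaculum intestinale. Duncaniella held 3, Duncaniella dubosii, Duncaniella sp. B8 and Duncaniella sp. C9. Paramuribaculum had 0 rows, and 0 genera of the family Muribaculaceae other than the members were in the genus table.

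The family Muribaculaceae, once known only as a group of uncultured mouse bacteria, is among the most common in the gut of rodents. Its members break down complex sugars, both plant polysaccharides of the diet and glycans of host mucus, with sets of enzymes and outer membrane transporters, and they ferment the released sugars to acids such as acetate, propionate and succinate. Muribaculum intestinale and Duncaniella dubosii are cultured species from the mouse intestine, while the names TLL-A4, B8 and C9 are those of sequenced isolates without a species name.

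Shotgun DNA sequencing was done on cecal contents of 33 rats aged 14 to 15 weeks, 1 library per rat. The spontaneously hypertensive rat (SHR) is bred to become hypertensive as it ages, and the Wistar Kyoto rat (WKY) is its usual control strain. The groups were 10 SHR females, 9 WKY females, 7 SHR males and 7 WKY males, and the labels name no treatment. Values are the percent of all reads that were given a taxon, so a larger share of one taxon and smaller shares of the others cannot be told apart, and a share is not a number of cells. The libraries held 163140 to 886827 such reads, with medians of 365717 in SHR females, 706634 in WKY females, 547938 in SHR males and 688051 in WKY males. This total was recovered from the deposited percents, and reading it as the reads given a taxon is inferred. It was larger than the reads recovered from the deposited normalized counts, in SHR female 1 467250 against 403619. P-values measure the spread between rats. Cages and litters are not given in the labels. Each strain had its own run of sample numbers, and the labels do not say whether these follow the order of processing. If they do, that order and strain cannot be told apart.

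Muribaculum was one of the dominant genera of these ceca. Its group mean ranked 2 among the genera in SHR females, 3 in WKY females, 2 in SHR males and 3 in WKY males. It had the highest share of any genus in 2 SHR females, 1 WKY female, 0 SHR males and 2 WKY males. Duncaniella ranked 6, 8, 9 and 11 in the same group order. Together the 2 genera took 31.5 ± 5.02% of the reads of the phylum Bacteroidetes in SHR females (SD, n = 10), 34.8 ± 3.71% in WKY females (n = 9), 30.9 ± 3.87% in SHR males (n = 7) and 35.6 ± 11.3% in WKY males (n = 7).

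The share of the genus Muribaculum varied several-fold within every group. It lay between 4.05% and 12.8% in SHR females, with a median of 8.39%, and between 3.24% and 14.1% in WKY females, with a median of 6.59%. In SHR males it lay between 3.32% and 8.96% with a median of 5.85%, and in WKY males between 0.729% and 17.1% with a median of 2.94%. The strains overlapped in both sexes, and the widest range was that of WKY males, whose highest rat had 23.4 times the share of the lowest. The WKY females fell apart into 5 rats at or under 6.59% and 4 rats at or above 11.5%, with none between, while SHR females filled that range.

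Duncaniella showed the same overlap at a lower level. Its share lay between 1.42% and 3.54% in SHR females (median 2.56%) and between 1.202% and 3.28% in WKY females (median 2.52%). In SHR males it lay between 1.10% and 3.21% (median 1.91%), and in WKY males between 0.321% and 3.47% (median 1.16%). WKY male 6 was the lowest rat of the study in both genera.

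**Figure D1:**
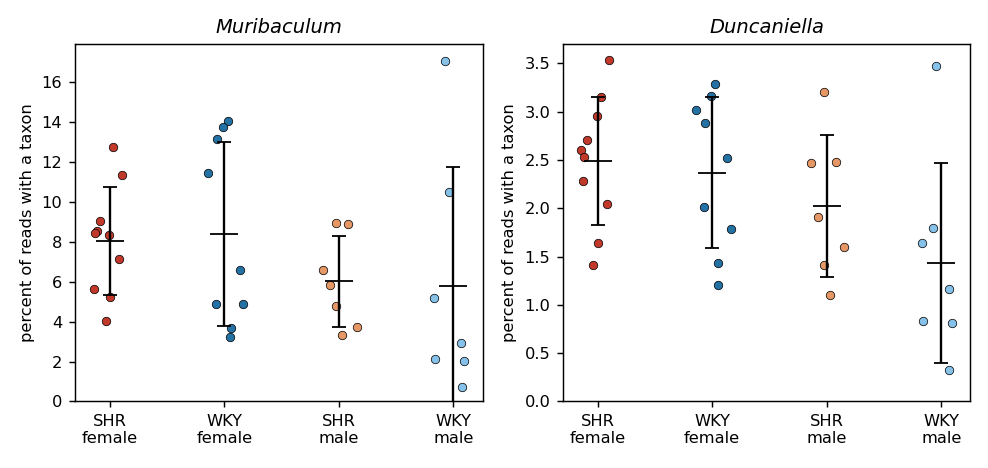
Share of the genera Muribaculum (left) and Duncaniella (right) in each rat, in percent of reads with a taxon, by group. Points are rats and bars show the mean ± SD of 10 SHR females, 9 WKY females, 7 SHR males and 7 WKY males (the lower bar of Muribaculum in WKY males is cut at the axis); the strains overlap in both sexes, and WKY males range from 0.729% to 17.1% in Muribaculum.

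Neither genus passed the strain test across all genera. Fold changes here are limma's, on log2(normalized value + 1), and a change was called at a Benjamini-Hochberg adjusted p under 0.05 over the 1418 genera or the 4641 species tested. Muribaculum averaged 8.05 ± 2.69% in SHR females and 8.41 ± 4.61% in WKY females, a log2 fold change of -0.30 ± 0.35 (SE, 95% interval -1.01 to 0.41, limma adjusted p = 0.718). In males it averaged 6.02 ± 2.28% in SHR and 5.80 ± 5.93% in WKY, a log2 fold change of 0.22 ± 0.41 (-0.61 to 1.05, limma adjusted p = 0.930). Duncaniella averaged 2.49 ± 0.661% in SHR females and 2.37 ± 0.780% in WKY females (log2 fold change -0.28 ± 0.25, interval -0.78 to 0.22, limma adjusted p = 0.612). On percent of reads that value turned sign, to 0.10. In males it averaged 2.02 ± 0.733% in SHR and 1.43 ± 1.03% in WKY (0.33 ± 0.29, interval -0.25 to 0.91, limma adjusted p = 0.725). Of all genera, 0.917% were called in females and 0% in males, and neither member was among them. In males 164 genera had an unadjusted p under 0.05 by limma, and edgeR called 11 and DESeq2 26. The intervals reach from -1.01 to 1.05, so these data do not show that the strains are alike.

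Muribaculum sp. TLL-A4, the most abundant member species, lay between 2.31% and 9.87% in SHR females (median 5.07%), against 2.08% to 11.1% in WKY females (median 4.20%). In males it lay between 1.85% and 5.14% in SHR (median 3.44%), against 0.436% to 15.8% in WKY (median 1.82%). The WKY females were again split, with 5 rats at or under 4.20% and 4 at or above 8.37%. WKY male 2, at 15.8%, stood far above the next male, WKY male 7 at 7.21%.

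Muribaculum intestinale lay between 1.61% and 3.32% in SHR females (median 2.85%), against 1.07% to 2.97% in WKY females (median 2.21%). In males it lay between 1.38% and 3.75% in SHR (median 2.27%), against 0.275% to 3.10% in WKY (median 1.04%). The groups overlapped, with 7 of 7 SHR males above the WKY male median. Muribaculum sp. TLL-A4 had the same count, with a log2 fold change of 0.04 in males. The log2 fold change of Muribaculum intestinale in males was 0.74 ± 0.32 (interval 0.10 to 1.38, limma adjusted p = 0.275) and in females -0.05 ± 0.27 (limma adjusted p = 0.954). Averaged over the sexes it was 0.35 ± 0.21 (limma adjusted p = 0.333).

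Duncaniella dubosii supplied most reads of its genus. It averaged 2.12 ± 0.619% in SHR females and 2.10 ± 0.717% in WKY females, a log2 fold change of -0.34 ± 0.27 (adjusted p = 0.549 by limma). In males it averaged 1.69 ± 0.649% in SHR and 1.25 ± 0.884% in WKY, a log2 fold change of 0.26 ± 0.32 (adjusted p = 0.792 by limma). These fold changes are on the size-factor scale, and on percent of reads the value in females turned sign, to 0.043. The strains overlapped in both sexes. Reads named to Duncaniella without a species took a further 0.310 ± 0.0532% in SHR females, 0.259 ± 0.0653% in WKY females, 0.274 ± 0.0756% in SHR males and 0.180 ± 0.144% in WKY males.

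Reads named after Duncaniella sp. C9 were the exception among the members. They were rare, but every SHR rat had a higher share than every WKY rat of either sex. In SHR females the share lay between 0.0188% and 0.0549% (median 0.0297%, 38 to 245 reads), and in WKY females between 0.00142% and 0.00415% (median 0.00226%, 8 to 28 reads). In SHR males it lay between 0.00734% and 0.164% (median 0.0205%, 37 to 967 reads), and in WKY males between 0.000144% and 0.00319% (median 0.000905%, 1 to 20 reads). Only 3 of the 4641 species tested (0.0646%) had every SHR rat above every WKY rat, and the others were Bifidobacterium catenulatum and Clostridiales bacterium Choco116. Within females alone 0.388% of species separated the strains in this direction, and within males alone 0.69%.

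In the fit across all species Duncaniella sp. C9 rose in SHR of both sexes. In females its mean share was 12.7 times that of WKY (0.0322 ± 0.0107% against 0.00254 ± 0.000936%), and the log2 fold change was 3.22 ± 0.43 (interval 2.35 to 4.09, limma adjusted p = 5.57e-05). In males it was 28.7 times that of WKY (0.0443 ± 0.0571% against 0.00154 ± 0.00124%), with a log2 fold change of 3.91 ± 0.50 (interval 2.90 to 4.93, limma adjusted p = 2.51e-05). SHR male 5 weighed on that mean, and without it the males' ratio of means was 15.8. Averaged over the sexes the log2 fold change was 3.57 ± 0.33 (limma adjusted p = 1.22e-08). By unadjusted p the species ranked 1 of 4641 in females, in males and in the average, while 2.33%, 0.539% and 5.45% of all species were called in these 3 comparisons. It was called in 45 of 45 settings in females and in 45 of 45 in males. These settings include the main fit and 33 fits that each left out 1 rat. The strain effect did not pass a difference between the sexes (-0.69 ± 0.66, interval -2.03 to 0.64, limma adjusted p = 0.888), a test that 0.0215% of species passed.

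The low-value filter asked for a normalized value of 10 in at least 7 rats, and all 2 genera and 5 species passed it. Duncaniella sp. C9 reached it in 17 of 17 SHR rats and in 11 of 16 WKY rats, so it would have passed on WKY alone. Counting error is large at its low end, since the exact 95% half-width ran from 6.35% to 277% of the rat's value. For the 2 genera, Muribaculum sp. TLL-A4, Muribaculum intestinale and Duncaniella dubosii it was at most 4.52% of the value, and for Duncaniella sp. B8 it ran from 13.6% to 68.0%. These intervals cover counting error only.

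Duncaniella sp. B8 was also higher in SHR when averaged over the sexes, by less and with overlap. Its share lay between 0.00981% and 0.0355% in SHR females (median 0.0253%), against 0.00258% to 0.0214% in WKY females (median 0.00647%). In males it lay between 0.00828% and 0.0256% in SHR (median 0.0120%), against 0.00144% to 0.0189% in WKY (median 0.00334%). The overlap came from 3 WKY females at 0.0163% or more and from WKY male 7. The log2 fold change was 1.22 ± 0.37 in females (limma adjusted p = 0.0764) and 1.42 ± 0.43 in males (limma adjusted p = 0.112), with 10 of 10 SHR females and 7 of 7 SHR males above the WKY median of their sex. The count in males does not set it apart, since the other member species had 7 of 7 or, for Duncaniella dubosii, 6 of 7. In females Duncaniella sp. C9 also had 10 of 10, both Muribaculum species 6 and Duncaniella dubosii 5. Averaged over the sexes Duncaniella sp. B8 rose by 1.32 ± 0.29 (interval 0.74 to 1.90, limma adjusted p = 0.00490). Leaving out 1 rat at a time, limma called it in 4 of 33 fits in females and in 1 of 33 in males. The adjusted p reached 0.136 in females and 0.224 in males. In males the call came without WKY male 7 (1.75, limma adjusted p = 0.0163). In females it came without SHR female 9 (1.35, adjusted p = 0.0434), SHR female 10 (1.34, adjusted p = 0.0480) or WKY female 4 (1.40, adjusted p = 0.0407). It also came in females without WKY male 7 (adjusted p = 0.0411). That rat is not in the comparison of females, whose log2 fold change stayed at 1.22.

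**Figure D2:**
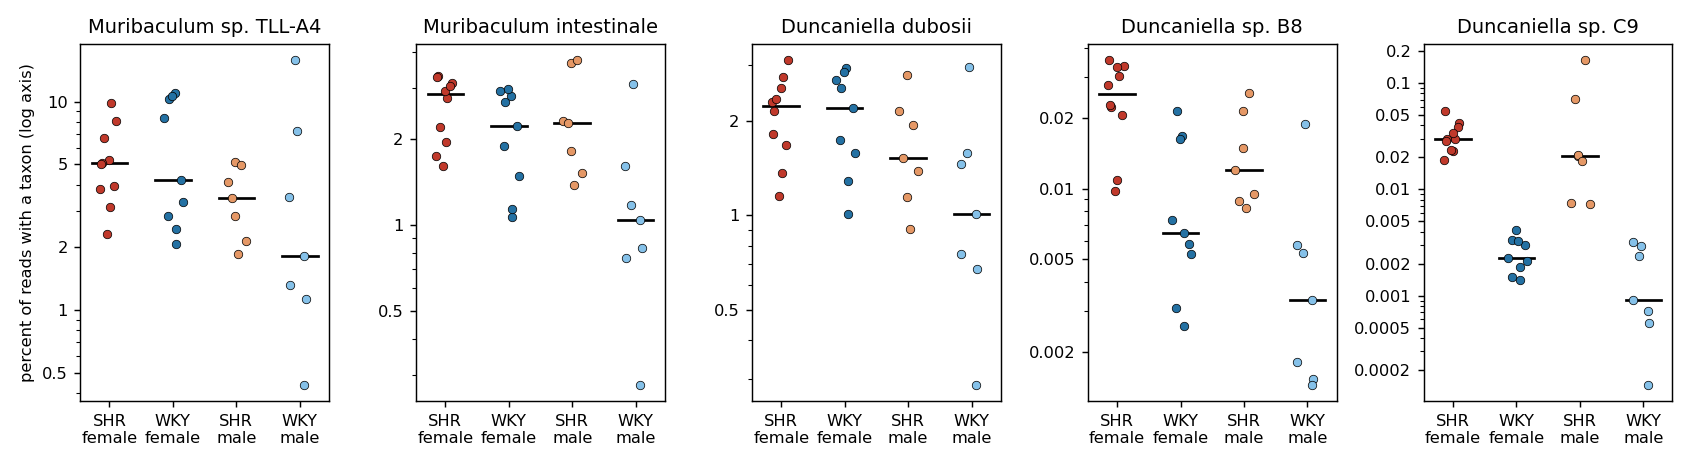
Share of the 5 member species in each rat, in percent of reads with a taxon on log axes that differ between panels, by group. Points are rats and lines are group medians; for Duncaniella sp. C9 the lowest SHR rat (0.00734%) lies above the highest WKY rat (0.00415%), while the other 4 species overlap.

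The library depth differed between the strains, so the members were also set against each other within each library, where the library total cancels. Per 1000 reads of Duncaniella dubosii there were 16.6 ± 7.51 reads of Duncaniella sp. C9 in SHR females and 1.24 ± 0.310 in WKY females. In males there were 26.6 ± 29.5 in SHR and 1.13 ± 0.569 in WKY. The lowest SHR rat had 3.48 and the highest WKY rat 2.19, so the strains did not overlap on this ratio. The log2 ratio was higher in SHR by 3.65 ± 0.24 in females (exact permutation test, 2-sided, adjusted p = 8.66e-05) and by 3.91 ± 0.69 in males (exact permutation, adjusted p = 0.00155). The ratio was chosen after the species values had been seen to separate the strains, so its test adds no separate support.

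Duncaniella sp. B8 was also higher in SHR relative to Duncaniella dubosii. There were 11.6 ± 3.27 reads per 1000 in SHR females and 4.30 ± 2.32 in WKY females, and 8.77 ± 3.19 in SHR males and 3.81 ± 1.46 in WKY males. The log2 ratio was higher by 1.58 ± 0.29 in females (exact permutation, adjusted p = 8.66e-05) and by 1.21 ± 0.28 in males (exact permutation, adjusted p = 0.00350). This ratio, like that of Duncaniella sp. C9, was chosen after the species values had been seen, and their p-values were adjusted over 8 tests. In females the lowest SHR rat had 8 reads per 1000 and the highest WKY rat 8.39, and in males the values were 5.60 and 6.35, so single rats overlapped. Both rare members of Duncaniella thus differed between the strains relative to its main species, while the genus as a whole did not pass the strain test.

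**Figure D3:**
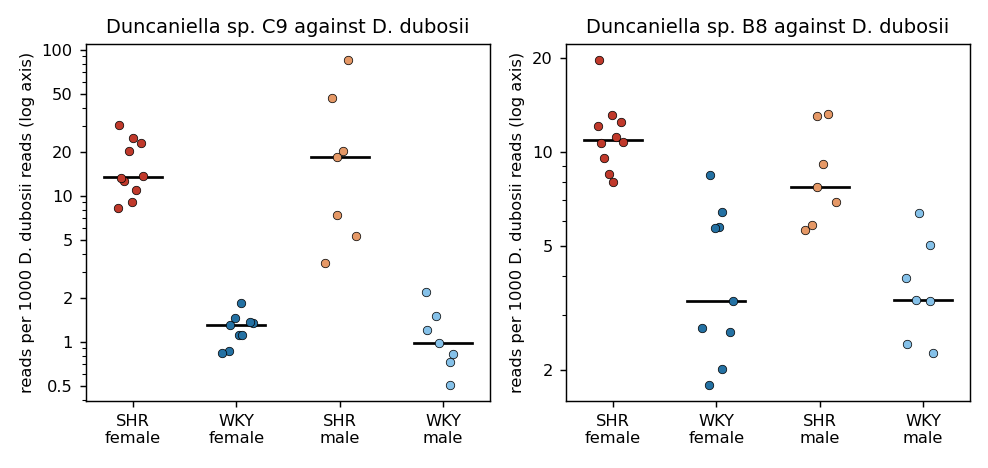
Reads of Duncaniella sp. C9 (left) and Duncaniella sp. B8 (right) per 1000 reads of Duncaniella dubosii in each rat, on log axes, by group. Points are rats and lines are group medians; on the left all 17 SHR rats lie at 3.48 or more and all 16 WKY rats at 2.19 or less, and on the right the strains overlap.

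Other ratios between genera were tested in the same way, with p-values adjusted over 16 tests. Per 100 Muribaculum reads there were 31.9 ± 5.95 Duncaniella reads in SHR females, 31.9 ± 8.06 in WKY females, 34.2 ± 4.99 in SHR males and 33.9 ± 11.2 in WKY males. The log2 ratio of the 2 genera differed between the strains by 0.02 ± 0.15 in females (exact permutation, adjusted p = 0.962) and by 0.11 ± 0.28 in males (exact permutation, adjusted p = 0.962). Muribaculum relative to Bacteroides, the other dominant Bacteroidales genus, differed by -0.06 ± 0.19 in females (exact permutation, adjusted p = 0.962) and by -0.49 ± 0.32 in males (exact permutation, adjusted p = 0.413).

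Relative to Parabacteroides, a genus of the same order, Muribaculum was lower in SHR. The log2 ratio was 1.82 ± 0.881 in SHR females and 4.03 ± 0.261 in WKY females, a difference of -2.21 ± 0.29 (exact permutation, adjusted p = 0.000346). It was 1.86 ± 1.06 in SHR males and 4.07 ± 0.605 in WKY males, a difference of -2.21 ± 0.46 (exact permutation, adjusted p = 0.00466). Every SHR rat of each sex lay below every WKY rat of that sex. Parabacteroides itself took 2.75 ± 1.81% of reads in SHR females and 0.503 ± 0.266% in WKY females, with overlap. In males it took 2.69 ± 3.55% in SHR and 0.282 ± 0.197% in WKY, without overlap.

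Within Muribaculum, the share of Muribaculum intestinale in the reads of the genus was 33.7 ± 7.19% in SHR females and 28.3 ± 6.68% in WKY females (exact permutation, adjusted p = 0.349). In males it was 39.5 ± 2.49% in SHR and 31.0 ± 11.3% in WKY, a difference of 8.56 ± 4.39 percentage points (exact permutation, adjusted p = 0.109). The lowest value was that of WKY male 2, at 6.85%, the rat with the highest share of Muribaculum sp. TLL-A4. Leaving out 1 rat at a time, the difference in males ran from 4.54 to 10.2 points, and 1 of 33 tests was called. That test was without WKY male 4 (10.2 points, exact permutation, adjusted p = 0.0186), and in the others the adjusted p reached 0.301.

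Between the sexes, the females of WKY had more Duncaniella than the males, and the fold change of every member ran the same way. Duncaniella took 2.37 ± 0.780% of reads in WKY females and 1.43 ± 1.03% in WKY males, with 9 of 9 females above the male median, and the groups overlapped. The log2 fold change was 0.94 ± 0.27 (interval 0.40 to 1.49, limma adjusted p = 0.0483), a call that 2.4% of genera reached. It was called in 15 of 45 settings, which include the main fit and the 33 fits that each left out 1 rat. Among those 33 the adjusted p reached 0.174 and the call ended in 25. Some of the 25 left out SHR rats, which are not in this comparison. In these the log2 fold change stayed at 0.94 and the limma adjusted p was 0.0507 to 0.0574. Muribaculum also had 9 of 9 WKY females above the male median but was not called, with a log2 fold change of 0.96 ± 0.39 (interval 0.18 to 1.74, limma adjusted p = 0.240).

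The 5 species had log2 fold changes of 0.96 to 1.03 between WKY females and males, and 0 of 5 were called, against 0.711% of all species. Muribaculum intestinale (0.96 ± 0.30) and Duncaniella dubosii (0.96 ± 0.30) each had a limma adjusted p of 0.116. Each was called in 3 of 45 settings, and in 1 of the 33 fits that left out 1 rat. That fit was without WKY male 7, the WKY male with the highest shares of both, at 1.17 (adjusted p = 0.0221) and 1.16 (adjusted p = 0.0241). In the other fits without 1 rat the limma adjusted p reached 0.247 and 0.265. They were also called by DESeq2, at 0.90 (adjusted p = 0.0343) and 0.87 (adjusted p = 0.0357), and by limma with the filter set at 100 (adjusted p = 0.0390 each). In SHR no member was called between the sexes, nor was any other genus or species by limma, edgeR or DESeq2 (0% of each table by limma, with 45 genera and 167 species at an unadjusted p under 0.05). Log2 fold changes there were 0.44 ± 0.38 for Muribaculum (limma adjusted p = 0.989) and 0.33 ± 0.26 for Duncaniella (limma adjusted p = 0.989). The strain effects of the 2 genera in females and in males did not pass a difference either, at -0.52 ± 0.54 for Muribaculum (limma adjusted p = 0.958) and -0.61 ± 0.38 for Duncaniella (limma adjusted p = 0.864).

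**Figure D4:**
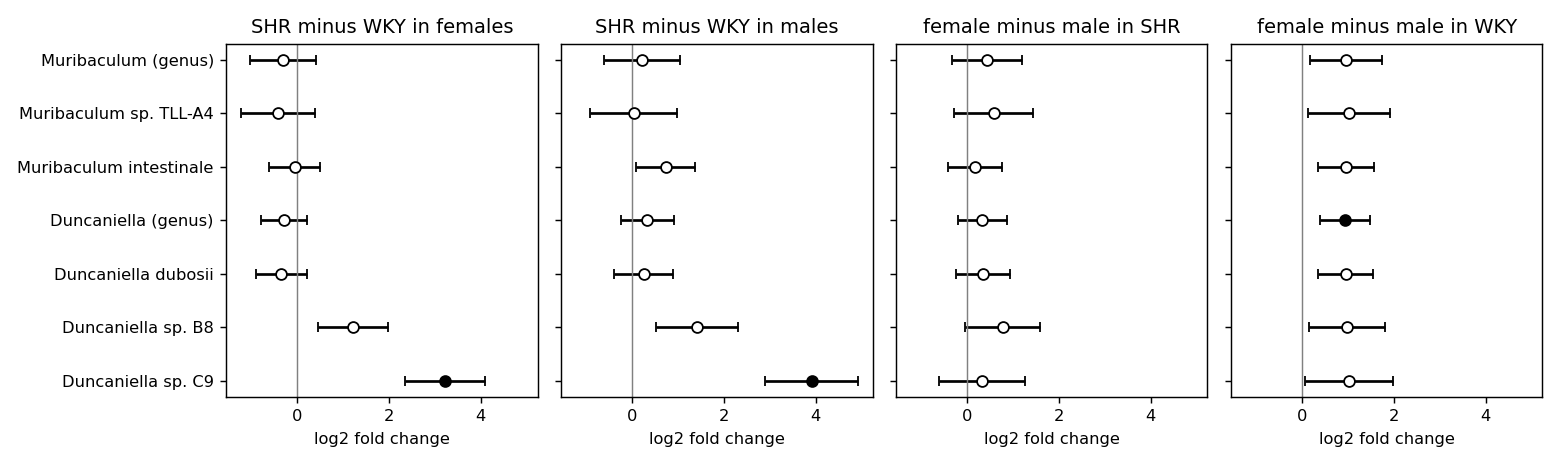
Log2 fold changes of the 2 genera and 5 species in the 4 comparisons, as points with 95% intervals (limma). Filled points passed at an adjusted p under 0.05: Duncaniella sp. C9 between the strains in females (3.22) and males (3.91), and the genus Duncaniella between the sexes of WKY (0.94).

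Other genera of the order were also called between the sexes of WKY. A list of 21 other genera was tested, of which the deposited table places 18 in Bacteroidales and 3, Alkalitalea, Draconibacterium and Salinivirga, in Marinilabiliales. Of the 18, 6 were higher in WKY females and 0 lower, and of the 3 none was called. The median log2 fold change was 0.89 over the 18 and 0.88 over the list of 21, against 0.00 over all 1418 genera. The 6 were Bacteroides (1.37 ± 0.39, limma adjusted p = 0.0483), Petrimonas (1.04 ± 0.26), Paludibacter (0.97 ± 0.23), Barnesiella (0.89 ± 0.25), Tannerella (0.86 ± 0.23) and Porphyromonas (0.86 ± 0.23). Of the other most abundant genera of the list, Alistipes (0.88 ± 0.39), Parabacteroides (0.997 ± 0.546), Phocaeicola (0.90 ± 0.58) and Prevotella (1.01 ± 0.31) were not called. On percent of reads, and in a fit of the 2 groups alone, 0 genera of the whole table were called between the sexes of WKY, and leaving out single rats gave 0 to 60. The phylum Bacteroidetes took 30.6 ± 14.5% of reads in WKY females and 18.1 ± 12.8% in WKY males.

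Few genera of the list were called between the strains. In females 0 of the 21 were called and the median was -0.20, against -0.05 over all genera, and in males 0 were called with a median of 0.43 against -0.01. Averaged over the sexes 1 was called, Parabacteroides (2.17 ± 0.38, limma adjusted p = 0.00108), while 3.03% of all genera were called. The median of the list was then 0.11, against -0.03 over all genera.

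The 2 member genera varied together from rat to rat. After centring on group means, their log2 normalized values had a Pearson r of 0.89 and a Spearman rho of 0.92 over 33 rats (permutation within groups, p = 1e-05 for each, the smallest that these permutations can give). Without the 2 rats farthest from the median of Muribaculum, r was 0.92. Within groups r was 0.91 in SHR females, 0.95 in WKY females, 0.94 in SHR males and 0.86 in WKY males. WKY male 2 lay off the line, with 17.1% Muribaculum and 1.79% Duncaniella. The points share libraries, and reads of related genera can be exchanged in naming, whose part in the relation was not tested. A rho of 0.92 was not particular to this pair, since Muribaculum had it with Hymenobacter and with Prevotella too.

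**Figure D5:**
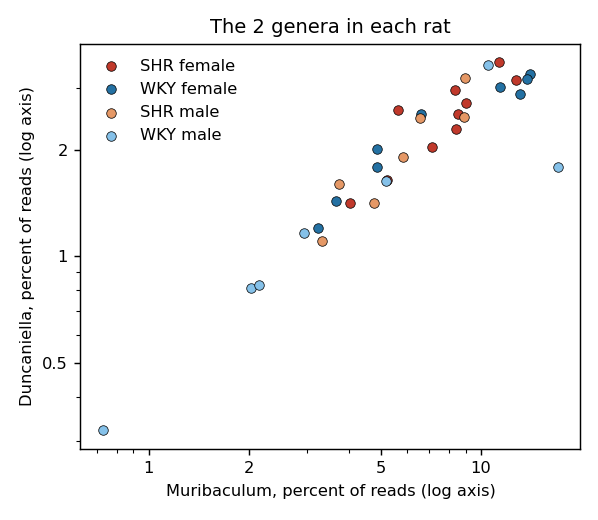
Share of Muribaculum (x axis) and Duncaniella (y axis) in each of the 33 rats, in percent of reads with a taxon on log axes, coloured by group. The rats lie along 1 band from WKY male 6 (0.729% and 0.321%) upward, and WKY male 2 (17.1% and 1.79%) stands to the right of it.

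Among the 10 pairs of member species, group-centred r ran from 0.43 to 0.87. The highest r was that of Muribaculum intestinale with Duncaniella dubosii (r = 0.87, rho = 0.85, permutation adjusted p = 1.67e-05), and it was 0.82 without the 2 farthest rats. Muribaculum sp. TLL-A4 with Duncaniella dubosii had an r of 0.86 and a higher rho of 0.91. Without the 2 farthest rats its r was 0.90. The lowest was that of Duncaniella dubosii with Duncaniella sp. C9 (r = 0.43, rho = 0.49, permutation adjusted p = 0.0249 and 0.00906), and it was 0.31 without the 2 farthest rats. That pair had r of 0.15 in SHR females and 0.23 in SHR males, against 0.72 in WKY females and 0.88 in WKY males, a contrast that was not tested. Whether the few C9 reads of WKY rats came from related genomes was not tested.

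Of 85 other genera with a mean of at least 0.1% of genus reads, those most like Muribaculum across the 33 rats were Hymenobacter (rho 0.92), Prevotella (0.92), Porphyromonas (0.90), Phocaeicola (0.90) and Paraprevotella (0.90), all of the phylum Bacteroidetes. For Duncaniella they were Porphyromonas (0.88), Hymenobacter (0.87), Paraprevotella (0.87), Prevotella (0.87) and Barnesiella (0.84). The least like were the same 3 genera for both, Bacillus (-0.88 for Muribaculum and -0.83 for Duncaniella), Streptococcus (-0.85 and -0.84) and Erysipelatoclostridium (-0.82 and -0.82). These are group-centred values over shared libraries, in which taxa compete for reads, and are given as a description.

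The authors' deposited tables of their own DESeq2 models hold Duncaniella sp. C9 under its taxon identifier, but print other names in those rows. In the authors' deposited table for females, 2 of the 187 rows whose identifier is in the species table carry the name that belongs to it, in that for males 2 of 33, and in that of the general model 1 of 383. The authors' mean normalized count in these tables lay within 1.2-fold of the deposited values by identifier in 187 of 187, 33 of 33 and 383 of 383 rows, and by printed name in 31 of 189, 7 of 33 and 34 of 386. By identifier, Duncaniella sp. C9 is the row with the lowest p of 236 in the authors' deposited table for females, with a log2 fold change of -3.32, an adjusted p of 4.10e-42 and the printed genus Roseburia. In the authors' deposited table for males it ranks 3 of 41 (-4.75, adjusted p = 0.000144) and is printed as Clostridium baratii.

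The sign in the authors' deposited tables runs as WKY over SHR by identifier, opposite to the SHR over WKY direction of the deposited values in 187 of 187 rows for females and 33 of 33 for males. In the general model it was opposite in 329 of 383 rows. Rows printed as Duncaniella sp. C9 in the authors' deposited tables carry the identifiers of Streptococcus ferus (females, 0.76), Streptococcus pasteurianus (males, 1.84) and Helicobacter acinonychis (general model, -1.27). In the authors' deposited table of the general model of strain and sex, Duncaniella sp. B8 by identifier has a log2 fold change of -1.996 (adjusted p = 0.00275) and is printed as Pseudomonas litoralis. The p of that model matches a test with 3 degrees of freedom, so it is not one of strain alone. Read by name, the authors' deposited tables thus give Duncaniella sp. C9 values of other species.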

How the data were processed

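The authors deposited the percent of reads for each bacterial species and genus and, as a signal that is never negative, read counts divided by a size factor of each sample. The authors also deposited log2 fold changes, p-values, adjusted p-values, mean normalized counts and standard errors of their models. The submitters' processing notes name Trimmomatic 0.36, cutadapt 2.6, FastQC 0.11.5, DESeq2 (no version) and the rat build Rnor_6.0. What named the reads (classifier, database) is not given in the sources used here. Names are as deposited and related species can share reads. Dividing by the step of 1 read gave whole reads for 100% of values (tolerance 0.01 read). The libraries held 163140 to 886827 reads with a taxon, so counting intervals are exact at 95%.

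The main test was limma 3.58.1 (trend, robust) in R 4.3.3 on log2(normalized value + 1), with 4 group means over 33 rats and a filter at a value of 10 in 7 rats. A fold change on this scale understates that of low taxa. The limma fit was also run on simulated species counts, for the strain difference averaged over the sexes only. Those counts were drawn independently with the same dispersion for all species, so they do not cover taxa that vary together. Alternatives were edgeR 4.0.16 and DESeq2 1.42.0 on recovered reads, percent, the centred log-ratio, other pseudocounts and filters, 2 groups only, and leaving out rats. On recovered reads edgeR called 175 species in females and 65 in males, against 108 and 25 by limma. Ratios were compared by 2-sided exact permutation tests, and correlations with 100000 resamples. Tables and figures used scipy 1.17.1, pandas 2.3.3, numpy 2.4.6, matplotlib 3.10.9 and Python 3.11.15.

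Every member is named. Of other genera, the text names the listed genera that passed, the 5 most abundant of that list, and the 5 most and 3 least like each member genus. The members and lists were chosen with earlier results of these data known.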

Additional observations from a re-analysis of the deposited data

Results flagged for a closer look

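Each of the 7 members was checked in each of the 4 groups for a rat far from the rest, by the gap to the nearest rat as a share of the group's range. Of these 28 checks, 2 passed Dixon's 95% critical value, where chance alone flags about 1 in 20 groups. Duncaniella sp. C9 stood at 0.164% in SHR male 5, against 0.0712% in the next SHR male, a gap of 0.592 of the range (critical value 0.568 for 7 rats). Duncaniella sp. B8 stood at 0.0189% in WKY male 7, against 0.00574% in the next WKY male, a gap of 0.754 of the range.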

How the results depend on the processing

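Duncaniella sp. C9 was called in every setting run between the strains in females, in males and averaged over the sexes, and Duncaniella sp. B8 in every setting run for the average. No paired analysis was possible because the labels give no replicate numbers that groups share. Depth limits Duncaniella sp. C9 in WKY rats, where it rests on 1 to 28 reads a library. The causes of the changes listed here were not tested.

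On percent of reads the median log2 fold change of all species was 0.23 in females and 0.28 in males, and that of all genera 0.29 and 0.33, so strain values on that scale are read against these shifts. Of species called between the strains in females, 396 of 424 were higher in SHR on percent, and 29 of 108 on the size-factor scale. In males these were 161 of 170 and 11 of 25.

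Uncalled values that changed sign between the strains in females were, on percent, Muribaculum (0.078), Duncaniella (0.10), Muribaculum intestinale (0.33) and Duncaniella dubosii (0.043). Without the 3 shallowest libraries Muribaculum intestinale was 0.086. In males Muribaculum was -0.12 by edgeR and -0.12 by DESeq2, and Muribaculum sp. TLL-A4 -0.52 and -0.54. Averaged over the sexes, Muribaculum was 0.35 on percent and 0.12 without the shallowest libraries, Duncaniella dubosii 0.35 and 0.12, and Muribaculum sp. TLL-A4 0.20 on percent. Duncaniella sp. C9 between the sexes of SHR was -0.54 by edgeR and -0.52 by DESeq2. The sex difference of the strain effect of Muribaculum sp. TLL-A4 was 0.0072 by edgeR and 0.041 by DESeq2. Muribaculum to Bacteroides between the sexes of SHR was -0.035 without the shallowest libraries.

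Duncaniella between the sexes of WKY lost its call on percent (0.97, adjusted p = 0.168), by edgeR (0.84, 0.106), with a pseudocount of 10 (0.94, 0.0519), with only the 2 groups (0.94, 0.155) and without trend and robust estimation (0.94, 0.0632). Duncaniella sp. B8 was called in females on percent (1.47), with a filter at 100 (1.22) and without the shallowest libraries (1.503), and in males on percent (1.55) and with a filter at 100 (1.42). Between the strains averaged over the sexes, Muribaculum intestinale was called in 1 of 44 settings. That setting was percent of reads (0.74, limma adjusted p = 0.0281), in which 1138 species were called.

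Leaving out single rats gave these ranges. Between the strains in males, Muribaculum ran from -0.041 to 0.57, Muribaculum sp. TLL-A4 from -0.25 to 0.47 and Duncaniella sp. B8 from 1.21 to 1.75. In females, Muribaculum intestinale ran from -0.15 to 0.033 and Duncaniella sp. B8 from 1.06 to 1.40. Averaged, Muribaculum ran from -0.17 to 0.13, Duncaniella from -0.063 to 0.13, Muribaculum sp. TLL-A4 from -0.33 to 0.026 and Duncaniella dubosii from -0.13 to 0.062. Duncaniella between the sexes of WKY ran from 0.76 to 1.15. The sex difference of the strain effect of Duncaniella sp. B8 ran from -0.53 to 0.010. Duncaniella to Muribaculum ran from -0.039 to 0.076 between the strains in females, -0.15 to 0.19 in males and -0.28 to 0.064 between the sexes of WKY. Muribaculum to Bacteroides ran from -0.17 to 0.035 between the strains in females and -0.059 to 0.11 between the sexes of SHR. Muribaculum to Parabacteroides ran from -0.39 to 0.12 between the sexes of SHR and -0.13 to 0.16 in WKY. The share of Muribaculum intestinale in its genus ran from 4.54 to 10.2 points between the strains in males. Duncaniella sp. C9 to Duncaniella dubosii ran from -0.38 to 0.39 between the sexes of SHR. Duncaniella sp. B8 to Duncaniella dubosii ran from 0.34 to 0.55 there, with a call without SHR male 3 or SHR male 5, and from -0.078 to 0.20 in WKY.

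The counts of called taxa over the whole tables moved by over 1.5 times as follows. Genera between the strains in females numbered 169 on percent, 29 by edgeR, 52 by DESeq2 and 57 without the shallowest libraries, against 13. In males they numbered 74, 11, 26 and 10, and 2 with a filter at 100, against 0. Averaged they numbered 541, 95, 116 and 85, and 13 with that filter, against 43. Between the sexes of WKY they numbered 0 on percent, 70 by DESeq2, 19 with that filter, 0 with only the 2 groups and 22 without trend and robust estimation, against 34. DESeq2 called 2 genera for the sex difference of the strain effect. Species in females numbered 424 on percent, 175 by edgeR, 244 by DESeq2, 40 with that filter and 204 without the shallowest libraries, against 108. In males they numbered 170, 65 and 174, and 10 with only the 2 groups, against 25. Averaged they numbered 1138, 454, 535, 71 and 402, against 253. Between the sexes of WKY they numbered 7 on percent, 83 by edgeR, 175 by DESeq2, 53 with a pseudocount of 10, 4 without a filter, 4 with only the 2 groups, 17 without trend and robust estimation and 61 without the shallowest libraries, against 33. With a filter at 100, 0 species were called for the sex difference of the strain effect. Leaving out single rats, genera ran from 9 to 27 in females, 0 to 20 in males, 34 to 71 averaged, 0 to 60 between the sexes of WKY and 0 to 1 for the difference of strain effects. Species ran from 45 to 148 in females, 13 to 75 in males and 1 to 103 between the sexes of WKY.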
